A study of Mus musculus with 33 samples.

Results

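The frontal region of the mouse embryo head was compared at embryonic day 10 (E10) and embryonic day 9.5 (E9.5), using 3 RNA-seq libraries of each stage out of 33 libraries that follow the tissue labelled frontal bone of calvaria over 11 stages from E8.5 to E14.5. All genes were examined. Of 55401 genes in the count table, 20073 had enough reads to be tested. Both groups carry the same labels apart from age: mouse frontal tissue and polyadenylated RNA, with no treatment. The sources used here give no strain, sex, genotype or pooling of embryos, and do not say whether libraries of 1 stage are separate embryos. All p-values therefore rest on the spread between libraries, which may be technical. The series concerns extracellular vesicles that carry citrate and the mineralisation of bone, and the step examined here lies before bone is formed.

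The label was checked against marker genes. Sp7, a transcription factor that bone-forming cells require, was at 0.442 to 1.21 CPM (the count scaled by library size) at E9.5 and at 0.545 to 0.872 CPM at E10. No read of Ibsp or Dmp1, matrix genes of mature bone cells, was counted at E9.5. Alx4 and Prrx1, transcription factors of the mesenchyme that surrounds the brain, were at 104 to 107 and 76.2 to 83.4 CPM at E9.5. Sox2, a transcription factor of neural stem cells, was at 120.1 to 130.4 CPM at E9.5 and at 103 to 105.5 CPM at E10. Defining markers of mesenchyme and of neural tissue were therefore present at both stages and those of bone were at or near 0, and the samples are called the frontal region below. In bulk RNA, fewer cells of a type and less RNA per cell cannot be told apart, which holds for every result that follows.

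At these ages the front of the head holds the neural tube of the future forebrain, the cranial neural crest and mesoderm mesenchyme around it, the covering ectoderm, vessels and primitive blood. Neural progenitors of the tube divide at the ventricle and, under proneural transcription factors and Notch signalling, release the first neurons. Early embryonic cells carry a growth program with high LIN28, MYC, ribosome assembly and glycolysis. The let-7 microRNAs, which LIN28 proteins keep from maturing, oppose that program in many tissues. The skull-forming mesenchyme has not yet condensed into bone at this time.

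Total counts of the 6 libraries ranged from 15969853 to 19196475, and libraries of 1 stage correlated at 0.9886 to 0.9898 (Pearson's r of log2 CPM, across genes) with none identical. The E9.5 libraries stood apart from both neighbouring stages for one group of genes. The 12 largest falls from E9.5 to E10 were all near 0 at E9, E10 and E10.5 and high in all 3 E9.5 libraries, so several lists below also carry a count against the E9 libraries, a comparison added after these values were seen and one that shares the E10 libraries. The summed level of 4 genes of the Y chromosome was 0.27 to 0.59 CPM at E9, 80.23 to 85.9 CPM at E9.5, 154.13 to 174.62 CPM at E10 and 190.9 to 203.48 CPM at E10.5. Xist, the RNA that silences an X chromosome in female cells, was at 772.8 to 879.2 CPM at E9.5 and 724.8 to 808.3 CPM at E10. RNA of both sexes was thus present at E9.5 and at E10, and the part of the Y-linked difference in the results below was not tested. At E9 Xist was at 1001.8 to 1095.7 CPM, and at E10.5 it was at 152.3 to 178 CPM. With almost no Y-linked RNA at E9, comparisons with E9 differ in sex as well as in age, and the part of sex was not tested.

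Between E9.5 and E10, 5364 of the 20073 genes tested (26.7%) changed at an adjusted p below 0.05 (edgeR's quasi-likelihood test with Benjamini-Hochberg adjustment). Higher at E10 were 2905 genes (14.47%) and lower were 2459 (12.3%). Changes of at least 2-fold were passed by 1057 genes upward (5.27%) and by 459 downward (2.29%). The ranges of the 3 and 3 libraries did not overlap for 9994 genes (49.8%). Rises made up 54.2% of calls, 69.7% when libraries were scaled by their totals alone and 42.1% when a trend with transcript length was removed, so the split between rises and falls rests on the scaling. With totals alone the median of all genes moved by 0.093 on the log2 scale.

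The comparison of E10.5 with E9 uses 6 other libraries, 1 stage further out on either side. These stages also differ in the sex of the RNA, as given above. There, 4085 genes (20.4%) were higher and 3128 (15.6%) were lower. Of the 2905 genes higher at E10, 2030 (69.9%) were also higher at E10.5 than at E9, which is 49.7% of the rises found there, and 28 (0.964%) were lower. Of the 2459 lower genes, 1657 (67.4%) were lower there too, 53% of the falls found there. Of 459 falls of at least 2-fold, 157 (34.2%) were lower at E10.5 than at E9, 63 (13.7%) were higher and 239 (52.1%) did not pass. The 1057 rises of at least 2-fold divided into 740 (70%) higher, 7 (0.662%) lower and 310 (29.3%) that did not pass.

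Gene lists below are given as the number of tested members that passed in each direction, read against the background of 14.47% higher and 12.3% lower. The range in parentheses after a count is its lowest and highest value over 15 other fits of the same 2 stages, which change the scaling, filter, tool or libraries. Changes are log2 fold changes ± standard error from the fit, and levels are CPM in libraries a, b and c of a stage.

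Among annotated genes with a mean of at least 5 CPM at E10 and no overlap between stages, the 3 largest rises were of transcription factors of neurons and their precursors. Eomes, the T-box transcription factor of intermediate progenitors and of the earliest cortical neurons (chromosome 9, 118478212 to 118486132, plus strand, GRCm38), was at 0.177, 0 and 0.0553 CPM at E9.5 and at 17.2, 17.7 and 15.0 CPM at E10, a rise of 7.60 ± 0.27 on the log2 scale (adjusted p = 5.34e-18). It had no read at E9 and was at 15.3, 13.4 and 17.2 CPM at E10.5. Every E10 library was far above every E9.5 library. Tbr1, a related factor of early-born glutamatergic neurons, went from 0.353, 0.127 and 0.0553 to 5.23, 6.79 and 6.54 CPM, a rise of 5.07 ± 0.28. Bcl11a, a zinc-finger factor of developing neurons, went from 3.24, 2.54 and 2.93 to 33.6, 34.2 and 31.3 CPM (rise of 3.50 ± 0.13), and its relative Bcl11b rose by 3.13 ± 0.18. Both groups of 3 libraries were narrow beside the change.

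**Figure D1:**
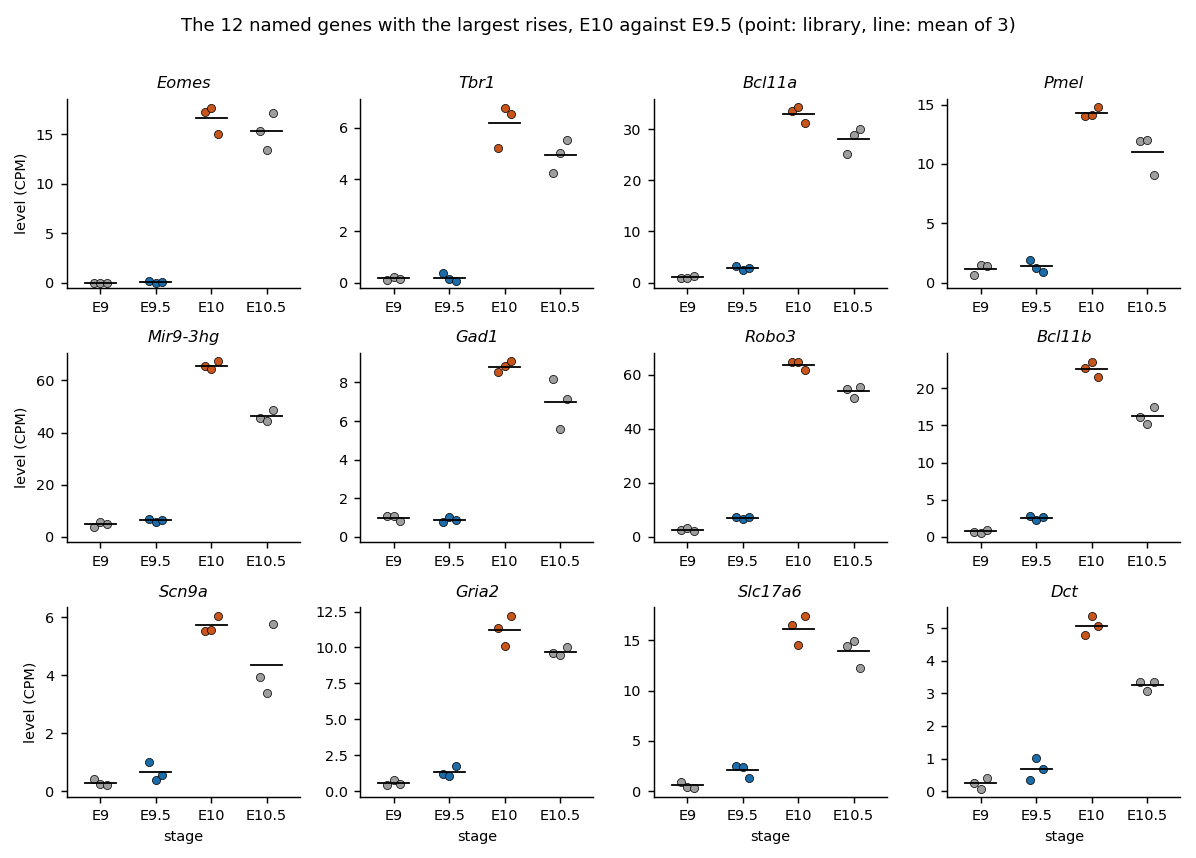
Level in CPM (vertical axes, each with its own scale) of the 12 genes with the largest rises from E9.5 to E10, at E9, E9.5, E10 and E10.5 (horizontal axes). Each point is a library and each line a mean of 3. The choice of genes required no overlap, so in all 12 panels the 3 E10 points lie above the 3 E9.5 points. Mir9-3hg was at 5.84 to 6.83 CPM at E9.5 and at 64.3 to 67.3 CPM at E10.

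Genes of transmitter identity and of growing axons were among these rises. Gad1, the enzyme that makes the inhibitory transmitter GABA, went from 0.766, 1.02 and 0.884 to 8.53, 8.83 and 9.10 CPM, a rise of 3.31 ± 0.18. Slc17a6, the vesicular transporter for glutamate, went from 2.47, 2.41 and 1.27 to 16.6, 14.51 and 17.4 CPM, a rise of 2.99 ± 0.21. Markers of inhibitory and of excitatory neurons thus rose in the same libraries. Robo3, a receptor that lets commissural axons cross the midline, went from 7.19, 6.54 and 7.30 to 64.7, 64.8 and 61.7 CPM (rise of 3.18 ± 0.14). Gria2, a subunit of AMPA-type glutamate receptors, rose by 3.05 ± 0.26, and Scn9a, a voltage-gated sodium channel, by 3.13 ± 0.36. Of genes added after their values were seen, Trp73, Lhx9, Lhx1 and Gad2 rose by 2.56, 2.51, 2.29 and 2.11. Reln, the secreted protein of the earliest cortical neurons, differed by -0.19 ± 0.19 on the log2 scale, adjusted p = 0.495.

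Of 18 tested genes of the neuron list, 16 rose (15 to 17), with a median change of 1.26 against 0.04 over all genes. Cntn2, an adhesion protein of growing axons, went from 12.4, 15.6 and 11.3 to 52.5, 52.8 and 48.5 CPM (rise of 1.98 ± 0.14). Dcx, a microtubule protein of migrating neurons, went from 32.2, 31.5 and 30.2 to 121, 113 and 128 CPM (rise of 1.94 ± 0.20). The cytoskeletal genes Stmn3, Mapt and Tubb3 rose by 1.902, 1.73 and 1.23. The 2 members that did not pass were Rbfox3, a marker of mature neurons (0.22, adjusted p = 0.29), and L1cam (0.56, adjusted p = 0.0555). The summed level of the list was 399 to 411 CPM at E9, 655 to 685 at E9.5, 1522 to 1608 at E10 and 1840.1 to 1884 at E10.5. Against the E9 libraries 17 members were higher at E10, where 25.3% of all genes tested were higher and 19.3% lower. From E9 to E10.5, in 6 other libraries, 17 members were higher as well.

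Proneural transcription factors, which commit progenitors to become neurons, rose in 10 of 14 members (10 to 12). Neurog2 went from 13.7, 16.6 and 14.4 to 37.7, 47.9 and 45.3 CPM (rise of 1.55 ± 0.16). Nhlh2, expressed just after a cell leaves division, rose by 1.52 ± 0.11, and Myt1, a zinc-finger factor of new neurons, by 1.92 ± 0.19. From E9 to E10.5, 13 of the members were higher. Neurog1, Neurod1 and Neurod4, which act in cranial sensory ganglia among other places, and Ebf2 did not pass. Their changes were 0.34, adjusted p = 0.0693, 0.27, adjusted p = 0.116, 0.18, adjusted p = 0.59 and 0.02, adjusted p = 0.967.

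The Notch pathway, through which new neurons hold their neighbours as progenitors, had 7 of 18 members higher (7 to 11) and 1 lower. Among ligands, Dll1, Dll3 and Jag2 rose by 0.55, 0.61 and 0.46, and Jag1 fell by 0.54. The receptor Notch1 went from 122, 130.4 and 125 to 221, 227 and 206 CPM (rise of 0.79 ± 0.23). Among targets, Hes5 and Hey1 rose by 0.63 ± 0.16 and 0.42 ± 0.10, and Hes1 did not pass (-0.08, adjusted p = 0.81), nor did Hey2, Heyl and Nrarp. Mfng, a sugar transferase that tunes the receptors, rose by 0.76 ± 0.11. Against the E9 libraries the list had 5 members higher and 6 lower, and Notch1, Hes5, Jag2 and Hey1 did not pass (adjusted p = 0.136, 0.075, 0.961 and 0.813). From E9 to E10.5, in 6 other libraries, 7 members were higher and 2 lower. There, Notch1 and Hes5 were higher by 0.92 and 1.16 (adjusted p = 0.00176 and 8.58e-07), and Jag2 was lower by 0.27 (adjusted p = 0.0269).

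Progenitor genes did not move as one. Of 14 tested, 7 rose (6 to 9) and 3 fell (1 to 4). Fabp7, a fatty acid binding protein of radial glia, went from 46.7, 48.3 and 46.0 to 142, 138 and 143 CPM (rise of 1.59 ± 0.16). The intermediate filament genes Nes and Vim rose by 0.61 and 0.53. The balance turned round against the E9 libraries, with 3 higher and 8 lower, and from E9 to E10.5 the counts were 6 and 4. Sox1, Sox2 and Six3, factors of the early neural plate and tube, fell by 0.38, 0.28 and 0.36. Sox2 did not pass with library totals alone (adjusted p = 0.108). Six3 did not pass without E10 library a (adjusted p = 0.0737).

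Cell cycle inhibitors rose in 7 of 12 members (6 to 8). Cdkn1c, which holds cells in G1 as they differentiate, went from 150.4, 147 and 153 to 266, 277 and 262 CPM (rise of 0.84 ± 0.14). Btg2, a marker of progenitors about to produce neurons, went from 31.7, 33.3 and 31.3 to 58.1, 56.2 and 57.8 CPM (rise of 0.84 ± 0.07). Gadd45g and the pocket protein Rbl2 rose by 0.83 and 0.82. Cdkn1a, the inhibitor under p53, did not pass (-0.11, adjusted p = 0.593).

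Long RNAs held in the nucleus moved with these genes: 5 of 7 rose and Neat1 fell by 0.60 ± 0.12. Miat, a long RNA of neural cells, went from 647, 677 and 661 to 1921, 1995 and 1895 CPM (rise of 1.55 ± 0.16). Malat1 went from 236, 218 and 205 to 473, 406 and 441 CPM (rise of 1.004 ± 0.16), and the imprinted Meg3 rose by 0.74 ± 0.07. Neat1, the scaffold of paraspeckles, was also higher at E10 than at E9, by 1.06, so its direction depends on which earlier stage is taken.

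**Figure D2:**
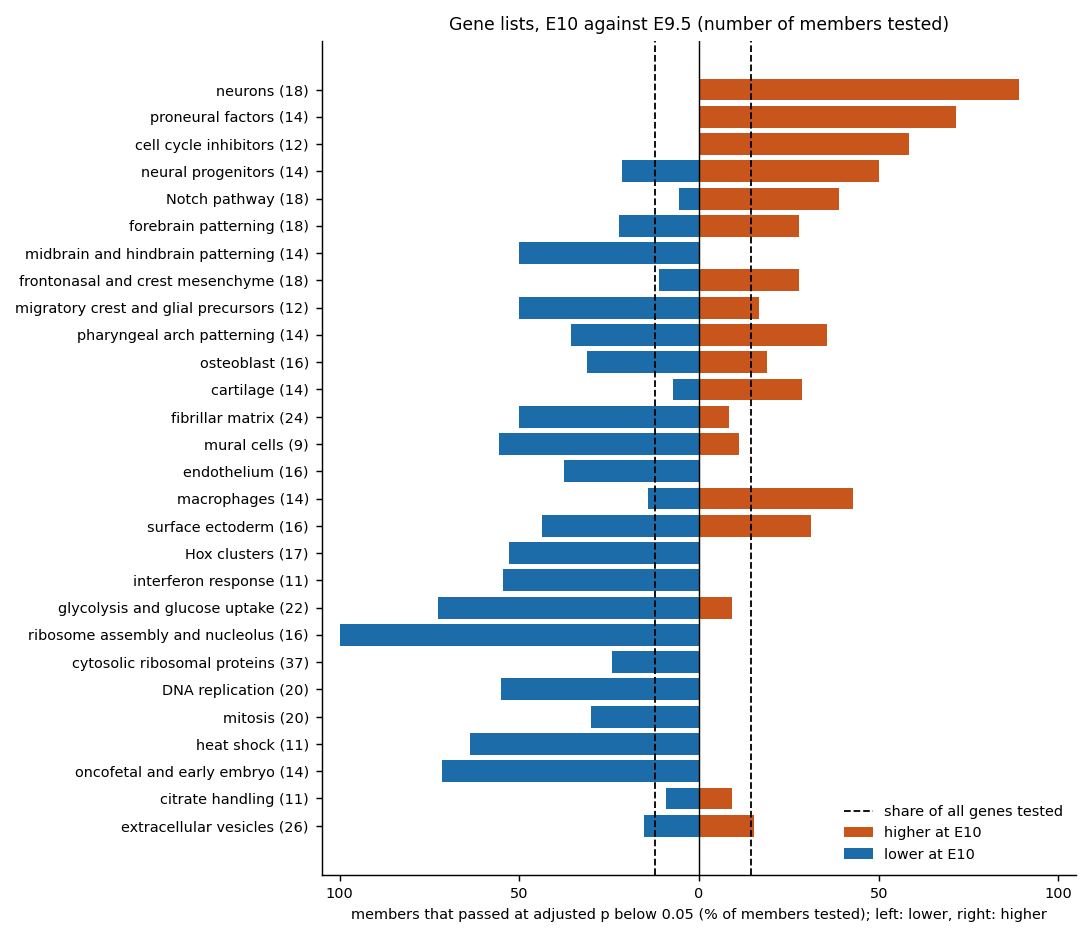
Percent of tested members (horizontal axis) of 28 gene lists that were higher (right) or lower (left) at E10 than at E9.5 at an adjusted p below 0.05, with the background of all genes tested as dashed lines at 14.47% and 12.3%. Bars of the neuron list reach 88.9% on the higher side and those of ribosome assembly 100% on the lower side.

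Genes of single brain regions went both ways. The forebrain list had 5 of 18 members higher (4 to 8) and 4 lower (2 to 6). Emx1, a homeobox factor of the dorsal telencephalon, went from 2.95, 2.86 and 2.93 to 9.77, 10.6 and 8.01 CPM (rise of 1.70 ± 0.18). Fezf2, a zinc-finger factor of forebrain progenitors, went from 13.49, 14.9 and 15.8 to 29.3, 29.0 and 29.0 CPM (rise of 0.98 ± 0.10). Six6 and Rax, factors of the eye field, fell by 1.22 ± 0.16 and 0.79 ± 0.23, and Hesx1, of the anterior neural plate and pituitary, fell by 1.57 ± 0.41. Against the E9 libraries 2 members were higher and 11 lower, and from E9 to E10.5 the counts were 4 and 6. Rax did not pass without E10 library a or c (adjusted p = 0.0554 to 0.0564).

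Genes that pattern the midbrain and its border with the hindbrain fell in 7 of 14 members (6 to 9), with a median of -0.44. En1 went from 11.49, 12.01 and 13.8 to 5.67, 5.56 and 5.72 CPM, a fall of 1.14 ± 0.15. Pax5 went from 55.2, 59.6 and 51.6 to 26.9, 25.7 and 27.8 CPM (fall of 1.05 ± 0.16), and Pax8 and Gbx2 fell by 1.08 and 0.90. All 3 E10 libraries were below all 3 E9.5 libraries for En1 and Pax5. Fgf8, the signal of that border, did not pass (-0.28, adjusted p = 0.348). Gbx2 did not pass without E10 library b (adjusted p = 0.0508). Against the E9 libraries 11 members were lower and 1 was higher, and from E9 to E10.5 the counts were 8 and 2. The summed level of the list was 416 to 446 CPM at E9, 344 to 362 at E9.5, 269 to 277 at E10 and 381 to 395 at E10.5. It was thus lower at E10 than at the next stage as well.

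Of genes of the dorsal neural tube, 1 of 12 rose (0 to 2) and 3 fell (1 to 4), and of the ventral tube 4 of 11 rose (3 to 5) and 1 fell (1 to 4). The ventral balance turned round against the E9 libraries, with 2 higher and 5 lower, and the dorsal counts were 2 and 4. From E9 to E10.5, in 6 other libraries, 7 ventral members were higher and 0 lower, and the dorsal counts were 6 and 6. Wnt3a and Gdf7, signals of the dorsal midline, fell by 0.87 and 1.09. Among ventral genes, Olig1 rose by 1.49 ± 0.30 from 1.06, 0.889 and 1.11 CPM, and Sim1, a factor of the basal plate and hypothalamus, rose by 0.98 ± 0.17. Nkx2-9 fell by 1.26 ± 0.24. Shh, the ventral organising signal, did not pass (-0.18, adjusted p = 0.282). Gdf7 did not pass without E10 library c (adjusted p = 0.0722).

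Of 5 pigment cell genes looked at, 4 were higher at E10. Pmel, the fibre protein of pigment granules, went from 1.94, 1.27 and 0.884 to 14.1, 14.2 and 14.8 CPM (rise of 3.39 ± 0.23). Dct, an enzyme of melanin synthesis, went from 0.353, 1.02 and 0.663 to 4.79, 5.38 and 5.07 CPM (rise of 2.91 ± 0.26). The other three were chosen after their values were seen. Of these, Tyr, the rate-limiting enzyme of melanin, had 1 count over the 3 E9.5 libraries and 140 at E10, a ratio of 138 (95% counting interval 24.4 to 5492). Tyrp1 rose by 3.27 ± 0.61. Mitf, the transcription factor that switches these genes on, did not pass (-0.08, adjusted p = 0.804). The eye's pigment layer and crest-derived pigment cells both use these genes and cannot be told apart here.

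Host transcripts of neural microRNAs rose in all 3 of the miR-9 genes. MicroRNAs are short RNAs that bind messenger RNA through their seed, bases 2 to 8, and are cut from a longer host transcript. Mature microRNAs were not measured, and these hosts were chosen after their values were seen. Mir9-3hg (chromosome 7, 79500026 to 79534403, plus strand) went from 6.83, 5.84 and 6.36 to 65.4, 64.3 and 67.3 CPM, a rise of 3.37 ± 0.11 (adjusted p = 2.1e-19). C130071C03Rik, host of Mir9-2, went from 20.03, 17.7 and 16.6 to 96.7, 81.4 and 90.3 CPM (rise of 2.30 ± 0.15). Gm3764, host of Mir9-1, went from 30.8, 28.6 and 36.1 to 149, 143 and 149.9 CPM (rise of 2.21 ± 0.08). Mir124a-1hg, host of the neuronal miR-124, rose by 2.63 ± 0.11. Over all 585 annotated microRNA host genes tested, 116 (19.8%) were higher and 65 (11.1%) lower.

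The mature sequences of the families whose hosts rose are shown because each family shares a seed across chromosomes. They are RefSeq sequences (GRCm38.p6), 5′ to 3′, with the seed in capitals.
miR-9-5p: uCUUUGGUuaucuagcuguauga
let-7a-5p: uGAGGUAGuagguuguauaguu
let-7c-5p: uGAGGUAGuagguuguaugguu
let-7e-5p: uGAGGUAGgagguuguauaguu
miR-125b-5p: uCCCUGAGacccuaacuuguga
miR-125a-5p: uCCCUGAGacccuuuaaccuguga
miR-100-5p: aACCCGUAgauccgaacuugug
miR-99a-5p: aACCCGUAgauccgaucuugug
The 3 let-7 RNAs shown share one seed, the pair of miR-125 RNAs another, and miR-99a and miR-100 one of their own.

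The let-7, miR-125 and miR-99 families sit side by side in 3 clusters of the genome, each holding a miR-99 or miR-100, a let-7 and a miR-125. The cluster on chromosome 9 lies in 3110039I08Rik, which went from 57.5, 55.1 and 53.6 to 227, 205 and 235 CPM (rise of 2.005 ± 0.12). Spaca6, which spans the cluster on chromosome 17, went from 52.9, 58.2 and 48.9 to 128, 121 and 132 CPM (rise of 1.252 ± 0.13). Mir99ahg, host on chromosome 16, went from 4.65, 4.70 and 3.87 to 6.66, 7.66 and 7.90 CPM (rise of 0.75 ± 0.21, adjusted p = 0.00764). It did not pass once the length trend was removed (adjusted p = 0.0814). All 3 clusters thus had a host that rose, while of 8 tested let-7 hosts the other 5 did not pass. They include 6720427I07Rik, which holds let-7a-1, let-7d and let-7f-1 (0.68, adjusted p = 0.0501) and passed under 6 of the other fits, and Huwe1, which holds let-7f-2 and miR-98 (0.00, adjusted p = 1).

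Genes of the oncofetal program, on in early embryos and off in most adult tissue, fell in 10 of 14 members (10 to 10), with a median of -0.82. Lin28a, an RNA-binding protein that stops let-7 from maturing, went from 411, 410.3 and 415 to 61.5, 62.2 and 67.3 CPM, a fall of 2.69 ± 0.13 (adjusted p = 8.01e-16). Its relative Lin28b went from 297, 296 and 262 to 134, 122 and 134 CPM (fall of 1.14 ± 0.09). Trim71, an RNA-binding ubiquitin ligase of early embryos, went from 152, 155 and 160.2 to 42.1, 44.9 and 48.7 CPM (fall of 1.78 ± 0.12). Lin28a, Lin28b and Trim71 were lower in every E10 library than in every E9.5 library. Sall4, a zinc-finger factor of pluripotent cells, fell by 1.246 ± 0.12, Dnmt3b, a DNA methyltransferase, by 0.84 ± 0.12, and Hmga2, a chromatin protein, by 0.48 ± 0.11. The 4 members that did not pass, L1td1, Nanog, Dppa5a and T, were low, with L1td1 at 1.94, 1.78 and 2.05 CPM at E9.5. Against the E9 libraries, and from E9 to E10.5, the list again had 10 members lower.

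Other genes with this course were chosen after their values were seen. Prtg, a receptor of the early neural tube, fell by 2.38 ± 0.11, and Nr6a1, a nuclear receptor of early embryos, by 2.13 ± 0.09. Their falls were larger than those of the listed members other than Lin28a. Wfikkn1, a secreted inhibitor of growth factors, fell by 2.56 ± 0.14, and Car4, a carbonic anhydrase, by 3.39 ± 0.16.

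**Figure D3:**
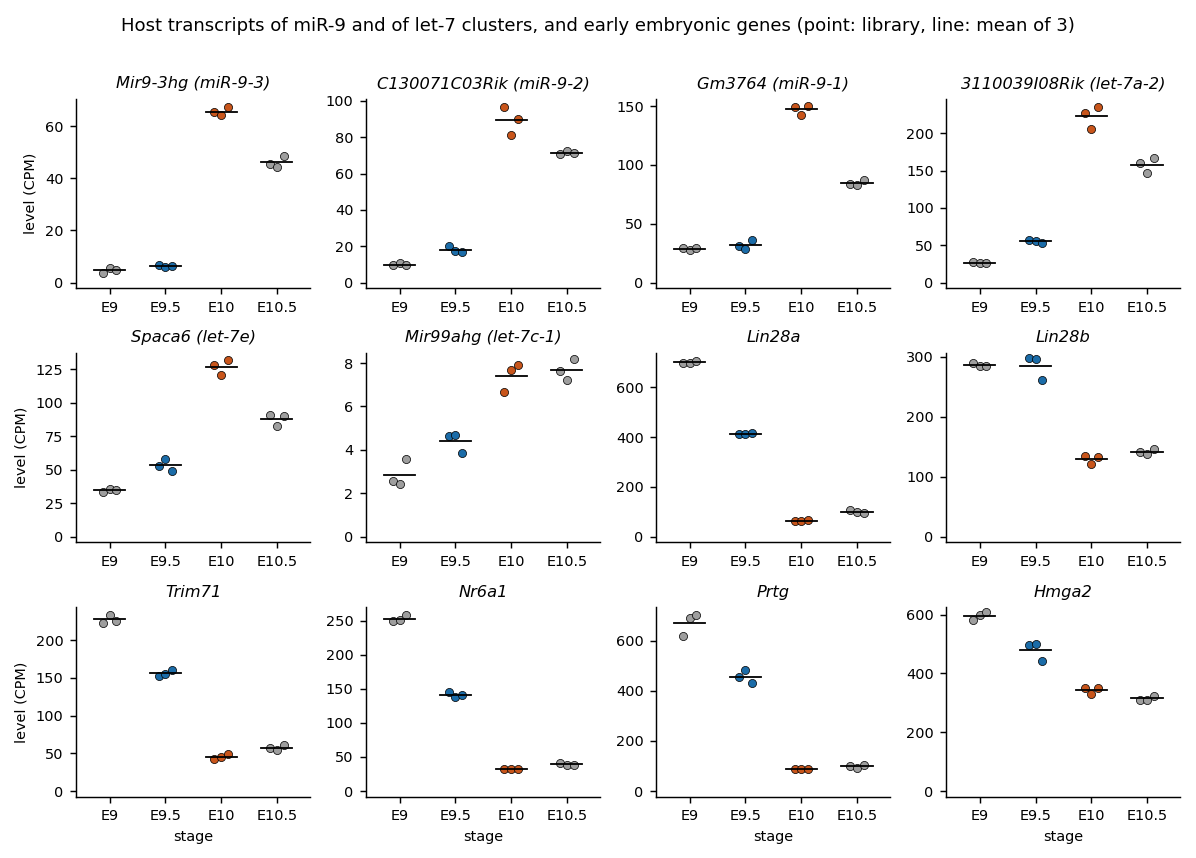
Level in CPM (vertical axes) at E9, E9.5, E10 and E10.5 (horizontal axes) of 6 microRNA host transcripts and of 6 genes of early embryos, each point a library and each line a mean of 3. The hosts are higher at E10 than at E9.5 and the early-embryo genes lower, as for Lin28a with 410.3 to 415 CPM at E9.5 and 61.5 to 67.3 CPM at E10.

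The letters CTACCTC, the match to the let-7 seed, were searched on the sense strand of 3′ untranslated regions (GENCODE M21 on GRCm38). They occurred in 1622 of 15697 regions (10.3%). Lin28a held 2 matches, Lin28b 4, Hmga2 4, Igf2bp1 4, Trim71 4, Prtg 2 and Nr6a1 8. Hmga1, Igf2bp2, Igf2bp3 and Sall4 held 1 each and Dnmt3b held none. Among regions of similar length, 15.4% held a match for Lin28a, 24.7% for Lin28b and for Nr6a1, 17.2% for Hmga2, 33.6% for Igf2bp1 and 30.2% for Trim71, above the share over all regions. One site of each of 4 genes is shown with its match in capitals.
Lin28a: cagcctgttgaaCTACCTCattttt
Lin28b: cgggcgggaagtCTACCTCatgcaa
Hmga2: gacattcaatttCTACCTCagcatc
Trim71: attgcctaagtcCTACCTCagctta
A match is a description of the letters and not a measured binding site.

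The MYC family fell. Myc, a transcription factor that drives growth, went from 43.8, 40.9 and 46.2 to 16.4, 18.1 and 16.7 CPM, a fall of 1.35 ± 0.10 (adjusted p = 1.08e-11). Its relatives Mycn, the main MYC protein of neural progenitors, and Mycl fell by 0.42 ± 0.08 and 0.23 ± 0.07. Mycl did not pass with library totals alone (adjusted p = 0.194). Mycl did not pass without E9.5 library a or c or E10 library a (adjusted p = 0.0504 to 0.0806). Every E10 library was below every E9.5 library for Myc.

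All 16 tested genes of ribosome assembly and the nucleolus fell (14 to 16), with a median of -0.57, all fell against the E9 libraries as well, and 15 fell from E9 to E10.5. Ncl, the nucleolar protein nucleolin, went from 2311, 2318 and 2203 to 1228, 1192 and 1269.9 CPM (fall of 0.89 ± 0.08). Npm1, a chaperone of ribosome assembly, went from 2567, 2511 and 2456 to 1392, 1314 and 1435 CPM (fall of 0.86 ± 0.11). Gnl3, a nucleolar GTPase of stem cells, fell by 0.84 ± 0.11. Nop2, an RNA methyltransferase of the large subunit, went from 153, 151 and 151 to 90.3, 92.2 and 87.6 CPM (fall of 0.75 ± 0.08). The smallest fall was that of Rrn3, an initiation factor of RNA polymerase I, at 0.23 ± 0.07. Rrn3 did not pass without E9.5 library c or E10 library b (adjusted p = 0.0956 to 0.103). The summed level of the list was 7468 to 7764 CPM at E9.5 and 4491 to 4667 at E10.

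Promoters of these genes were searched for the E-box CACGTG, a palindrome that MYC and several other basic helix-loop-helix proteins can bind. RefSeq promoters (GRCm38.p6, 250 bases before to 50 after the start) were matched for 13 of the 16 genes, and 4 of them held the letters (30.8%): Nop2, Rrn3, Utp20 and Wdr43. The letters were held by 2187 of all 27025 RefSeq promoters (8.09%), and by 1421 of the 13311 promoters of tested genes (10.7%). The pair with the largest and the smallest fall of the 4 is shown, with the E-box in capitals, 5′ to 3′ on the plus strand.
Nop2, chr6:125131633-125131932: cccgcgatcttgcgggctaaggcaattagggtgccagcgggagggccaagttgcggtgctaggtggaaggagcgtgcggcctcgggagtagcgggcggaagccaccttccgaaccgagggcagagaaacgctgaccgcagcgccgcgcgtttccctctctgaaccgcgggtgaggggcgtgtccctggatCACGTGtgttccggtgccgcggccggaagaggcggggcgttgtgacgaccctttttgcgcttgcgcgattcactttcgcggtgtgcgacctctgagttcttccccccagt
Rrn3, chr16:13780449-13780748: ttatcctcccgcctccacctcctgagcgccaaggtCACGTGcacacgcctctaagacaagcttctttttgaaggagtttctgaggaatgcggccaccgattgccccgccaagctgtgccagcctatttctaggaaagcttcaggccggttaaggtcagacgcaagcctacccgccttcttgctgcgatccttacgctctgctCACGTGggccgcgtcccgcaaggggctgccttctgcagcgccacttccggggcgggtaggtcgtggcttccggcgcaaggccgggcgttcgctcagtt
The Nop2 promoter held its E-box 60 bases before the start and the Rrn3 promoter held 2. Falls of the 4 genes with an E-box lay between that of Rrn3 and that of Nop2, inside the range of the list. No binding was measured.

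Genes of the ribosome itself had smaller changes. Of 37 cytosolic ribosomal protein genes 9 fell (7 to 33), with the highest count when only the 6 libraries compared were fitted. Many ribosomal protein genes have near-identical copies in the genome, so reads may be split between them. Their median was -0.27.

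DNA replication genes fell in 11 of 20 members (7 to 15). Ccne1, the cyclin that opens S phase, went from 108, 103 and 110.3 to 61.1, 63.1 and 55.0 CPM (fall of 0.84 ± 0.13), and Mcm4, a subunit of the replication helicase, from 403, 388 and 402 to 261, 261 and 265 CPM (fall of 0.60 ± 0.06). Rrm2, which makes deoxynucleotides, fell by 0.55 ± 0.06. Of the mitosis genes, 6 of 20 fell (2 to 12), led by the kinase Plk1 at 0.44 ± 0.07. Mki67 and Top2a, common markers of dividing cells, did not pass (0.30, adjusted p = 0.175 and 0.16, adjusted p = 0.182). Both passed as higher when only the 6 libraries compared were fitted (adjusted p = 1.57e-06 and 0.00186), and over the other fits the mitosis list had 0 to 5 rises.

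Chaperone genes fell in 7 of 11 members (6 to 8). Hspd1, a chaperone of mitochondria, went from 1233, 1221 and 1163 to 640.0, 619 and 655 CPM (fall of 0.92 ± 0.09), and the cytosolic Hsp90ab1 fell by 0.74 ± 0.07. Hspb1, a small heat shock protein, fell by 2.21 ± 0.26 against E9.5 but was higher at E10 than at E9, by 1.66. In the list of amino acid supply and the unfolded protein response, 7 of 17 fell and 4 rose. Asns, which makes asparagine, fell by 0.65 ± 0.09, and Psat1 and Shmt2, enzymes of serine and one-carbon supply, by 0.59 and 0.56. Xbp1 and Herpud1, genes of the endoplasmic reticulum response, rose by 0.54 and 0.57. Hspa5 and Ddit3, of the same list, did not pass (0.08, adjusted p = 0.368 and 0.405, adjusted p = 0.168). Trib3 had the largest change of the list, a fall of 1.60 ± 0.26 from a mean of 3.56 CPM.

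Glucose metabolism changed along most of its path. Of 22 genes of glycolysis and glucose uptake, 16 fell (16 to 16), with a median of -0.71, 20 fell against the E9 libraries and 19 from E9 to E10.5. Slc2a3, a glucose transporter, went from 294, 302 and 301 to 91.5, 82.5 and 88.0 CPM, a fall of 1.77 ± 0.09 (adjusted p = 5.82e-16). Slc16a3, which exports lactate, went from 169.8, 174 and 175 to 74.5, 73.1 and 68.8 CPM (fall of 1.26 ± 0.10), and Slc16a1, another lactate carrier, fell by 1.07 ± 0.09. Hk2, which traps glucose in the cell, went from 165, 164 and 169 to 83.5, 85.0 and 80.3 CPM (fall of 1.001 ± 0.11). Pdk1, which keeps pyruvate out of mitochondria, fell by 0.85 ± 0.06. Levels of these genes were lower in each E10 library than in each E9.5 library. Ldhb, the lactate dehydrogenase subunit of oxidative tissues, rose by 0.90 ± 0.14, while Ldha fell by 0.86 ± 0.12. Pfkp, a phosphofructokinase, rose by 0.49 ± 0.14. Pfkp did not pass without E9.5 library a (adjusted p = 0.0606).

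From E9.5 to E10, of other genes under low-oxygen control 4 of 16 fell (4 to 7) and 1 rose, against 14 lower when the E9 libraries were used. Ndrg1 and Bnip3 fell by 0.94 and 0.76. Car9, a carbonic anhydrase, rose by 1.16 ± 0.32. Vegfa, the vessel growth factor, did not pass (0.15, adjusted p = 0.135). In the TCA cycle, 5 of 21 genes fell (3 to 12), led by Pdha1, the entry enzyme that turns pyruvate into acetyl-CoA, at 0.44 ± 0.06.

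Most citrate genes, the subject of the series, did not pass. Of 11 tested, 1 rose (1 to 2) and 1 fell (0 to 3). Idh1, which turns isocitrate into 2-oxoglutarate in the cytosol, went from 167, 169.9 and 164 to 241, 236 and 244 CPM (rise of 0.53 ± 0.08, adjusted p = 5.68e-06). Cs, the citrate synthase of mitochondria, went from 332, 325 and 319.6 to 269, 283 and 268 CPM (fall of 0.25 ± 0.07, adjusted p = 0.00454), and did not pass with library totals alone (adjusted p = 0.21). The groups of 3 libraries did not overlap for either gene. Slc13a5, the plasma membrane citrate transporter linked to mineral in bone and teeth, was at 0.766, 1.02 and 0.719 CPM at E9.5 and 1.31, 0.819 and 1.04 CPM at E10, a difference of 0.34 ± 0.39 on the log2 scale, adjusted p = 0.567. Slc25a1, which carries citrate out of mitochondria, differed by -0.26, adjusted p = 0.135, and Acly, which splits citrate for lipid synthesis, by 0.04, adjusted p = 0.874. Slc25a1 passed when only the 6 libraries compared were fitted (adjusted p = 0.00272). Ank, a membrane protein that releases ATP, pyrophosphate and citrate, differed by -0.15, adjusted p = 0.234. Aco1, Idh2, Slc13a3 and Slc39a1 did not pass either. In the fit of only the 6 libraries, Aco1 passed as lower and Idh2 as higher (adjusted p = 0.0256 and 0.0192).

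Extracellular vesicle genes passed at about the background share in each direction, with 4 of 26 higher (2 to 8) and 4 lower (2 to 7). Smpd3, the neutral sphingomyelinase that forms ceramide for vesicle budding and is needed for mineral in bone, went from 9.25, 13.1 and 8.18 to 15.9, 18.3 and 17.1 CPM (rise of 0.76 ± 0.16). The annexins Anxa6 and Anxa5, calcium-binding proteins of matrix vesicles, rose by 0.45 and 0.30. Rab27a, which docks vesicles for release, rose by 0.47 ± 0.15. Rab27a did not pass without E9.5 library a or b or E10 library a (adjusted p = 0.0567 to 0.0879). Anxa5 did not pass without E9.5 library a, b or c or E10 library a or b (adjusted p = 0.0574 to 0.12). Arf6, a GTPase of membrane traffic, went from 94.1, 94.8 and 112 to 49.1, 61.6 and 59.0 CPM (fall of 0.83 ± 0.12), and the tetraspanin Cd9 fell by 0.58 ± 0.11. Cd63 and Cd81, the other two tetraspanin markers listed, did not pass (0.09, adjusted p = 0.706 and -0.02, adjusted p = 0.935).

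Mesenchyme genes of the frontonasal region went both ways. Of 18 members, 5 rose (3 to 9) and 2 fell (1 to 5). Against the E9 libraries 6 were higher and 8 lower, and from E9 to E10.5 the counts were 3 and 9. Alx1, a homeobox factor needed for the midface and skull vault, went from 16.7, 20.01 and 17.5 to 37.9, 35.1 and 40.05 CPM (rise of 1.06 ± 0.12), with no overlap between stages. Its change from E9 to E10.5 was -0.26 (adjusted p = 0.104). Msx1, a homeobox factor of skull and tooth mesenchyme, went from 59.3, 57.0 and 57.3 to 78.6, 81.8 and 82.1 CPM (rise of 0.48 ± 0.09). Pdgfra, the receptor that marks crest mesenchyme, went from 104, 108 and 112 to 166, 151 and 160.3 CPM (rise of 0.56 ± 0.12). From E10 to E10.5, Alx1, Msx1 and Pdgfra fell by 1.41, 0.39 and 0.42 (adjusted p = 5.33e-09, 0.00534 and 0.0279). Twist1, whose loss fuses skull sutures, fell by 0.36 ± 0.10, and Foxc1, a factor of calvarial growth, by 0.54 ± 0.10. Prrx1 did not pass (0.18, adjusted p = 0.164). Twist1 did not pass without E9.5 library c or E10 library c (adjusted p = 0.0516 to 0.0712).

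Genes of migrating crest and its glial offspring fell in 6 of 12 members (4 to 6), and 8 fell against the E9 libraries. Sox10, the factor of migrating crest and glia, went from 14.7, 18.5 and 19.3 to 7.84, 10.7 and 8.66 CPM (fall of 0.95 ± 0.14). Its partner genes Erbb3, a neuregulin receptor, and Foxd3 fell by 0.75 and 1.08. Ets1, a factor of cranial crest and of vessels, fell by 0.74 ± 0.11. The 2 members that rose were Sox9 at 0.40 ± 0.10 and Fabp7, which is also a radial glia gene. Foxd3 did not pass without E9.5 library a or c or E10 library a, b or c (adjusted p = 0.0574 to 0.22).

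Pharyngeal arch genes went both ways, 5 of 14 higher and 5 lower (2 to 5). Lhx6 and Lhx8, paired LIM factors of the maxillary and oral mesenchyme and of the ventral forebrain, went from 2.30, 3.30 and 2.60 to 9.65, 11.6 and 9.04 CPM and from 5.42, 4.96 and 5.58 to 18.9, 15.2 and 15.3 CPM. Their rises were 1.89 ± 0.19 and 1.63 ± 0.18. Dlx1, of the same places, rose by 1.23 ± 0.10. Gsc, a homeobox factor of jaw mesenchyme, rose by 2.23 ± 0.50. Edn1, the signal that sets lower-jaw identity, fell by 1.39 ± 0.29, and its targets Dlx5 and Dlx6 by 0.56 and 0.69. Hand2, a further target, had 19 counts at E9.5 and 1 at E10, a ratio of 19.3 (95% counting interval 3.06 to 800). Hand2 did not pass without E9.5 library a (adjusted p = 0.056). Dlx5 did not pass without E9.5 library c or E10 library b (adjusted p = 0.0555 to 0.0846). Dlx6 did not pass without E9.5 library a, b or c or E10 library b or c (adjusted p = 0.0606 to 0.143).

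Of 16 osteoblast genes, 3 rose (1 to 3) and 5 fell (3 to 7). Runx2, the first factor of the bone lineage, went from 0.353, 0.762 and 0.940 to 1.56, 1.11 and 2.02 CPM (rise of 1.18 ± 0.28, adjusted p = 0.00163), with every E10 library above every E9.5 library. Ibsp had 0 counts at E9.5 and 21 at E10, at least 6.9-fold higher if the group's total is set to a floor of 3 counts. Dmp1 had 0 and 12, at least 3.95-fold higher. Dmp1 did not pass without E10 library b (adjusted p = 0.0958). Alpl, the phosphatase of mineralising cells that early embryonic cells also carry, went from 23.8, 23.4 and 27.9 to 18.6, 16.5 and 15.5 CPM (fall of 0.57 ± 0.11). Sp7 and Spp1 did not pass (-0.14, adjusted p = 0.811 and -0.46, adjusted p = 0.296). In the cartilage list, 4 of 14 members rose (4 to 6) and 1 fell (0 to 2), with a median of 0.10. Col11a2, Col9a3 and Col9a2, collagens of cartilage fibrils, rose by 0.98, 0.90 and 0.78. Hapln1, a link protein of cartilage matrix, fell by 0.43 ± 0.12, and Col2a1, the main cartilage collagen, did not pass (0.10, adjusted p = 0.655).

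The genes with the largest falls were high at E9.5 alone among the stages from E9 to E10.5. Ly6a, a surface antigen of stem cells and vessels in later life, was at 37.3, 31.1 and 36.2 CPM at E9.5 and had no read at E10, at least 601-fold lower with the E10 total set to the same floor of 3 counts. Serpina3n, a protease inhibitor, was at least 303-fold lower, and Cfd, complement factor D of fat cells, at least 151-fold. Actg2, an actin of smooth muscle, went from 66.9, 59.2 and 67.6 to 0.436, 0.175 and 0.272 CPM (fall of 7.76 ± 0.26). Myh11, the myosin of smooth muscle, went from 28.0, 29.3 and 30.6 to 0.685, 0.877 and 0.218 CPM (fall of 5.63 ± 0.28). Ly6a had no read at E9, E10 or E10.5, and Myh11 was at 0.342 to 0.459 CPM at E9 and 0.462 to 0.721 CPM at E10.5. Mgp, an inhibitor of calcification, went from 35.1, 37.3 and 38.4 to 0.249, 0.234 and 0.327 CPM (fall of 7.05 ± 0.35), and Igfbp6, C3, Ifi27l2a, Cd74 and Ly6c1 fell by 7.45, 6.85, 6.70, 5.79 and 5.62. Dpt, a protein of connective tissue, had 593 counts at E9.5 and 3 at E10, a ratio of 200 (95% counting interval 68.2 to 975).

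**Figure D4:**
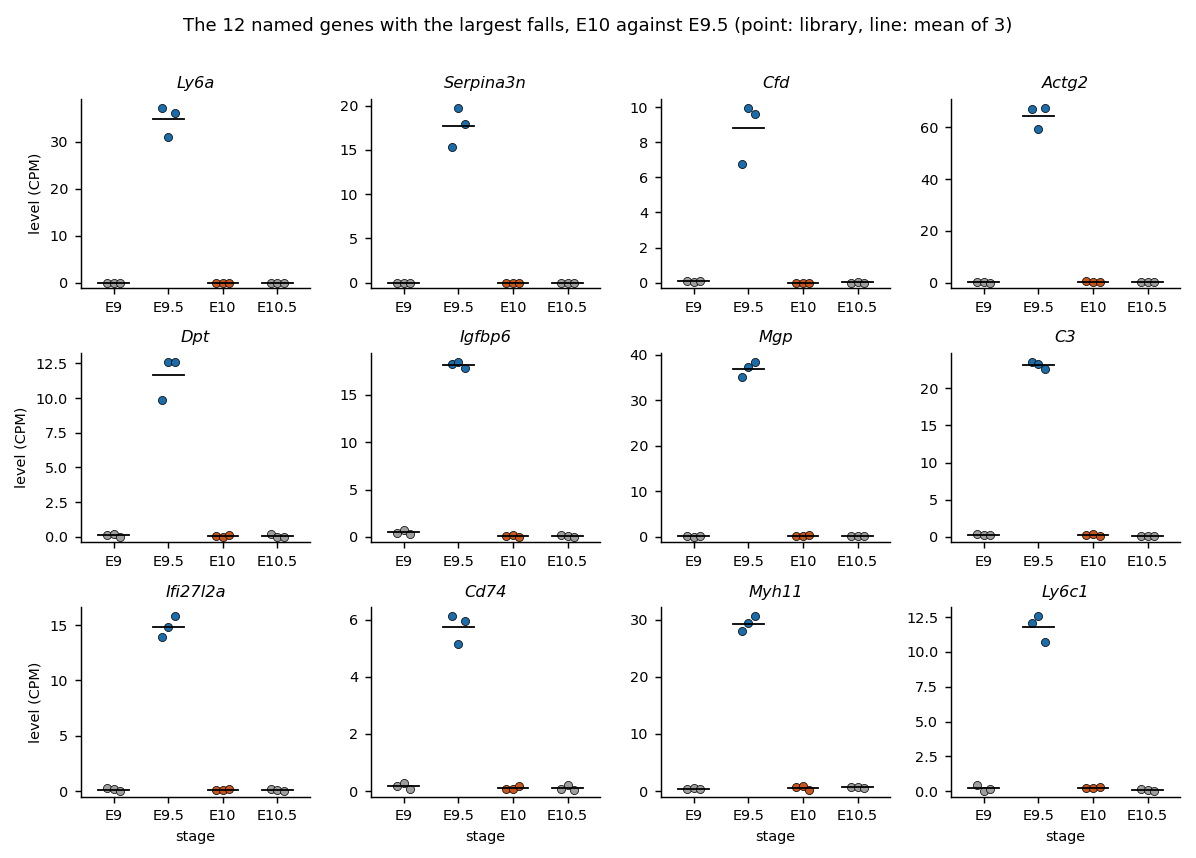
Level in CPM (vertical axes, each with its own scale) of the 12 genes with the largest falls from E9.5 to E10, at E9, E9.5, E10 and E10.5 (horizontal axes), each point a library and each line a mean of 3. In all 12 panels the E9.5 points stand alone, as for Ly6a with 31.1 to 37.3 CPM at E9.5 and no read at E10.

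Mural cell genes, of smooth muscle and pericytes, fell in 5 of 9 members (5 to 5). Acta2, smooth muscle actin, went from 122, 127 and 123 to 17.8, 19.3 and 16.6 CPM (fall of 2.80 ± 0.12). Cnn1 and Tagln, proteins of the same contractile apparatus, fell by 4.99 ± 0.29 and 2.37 ± 0.16. The pericyte genes Pdgfrb and Abcc9 did not pass (0.18, adjusted p = 0.179 and 0.09, adjusted p = 0.79), and Cspg4 rose by 1.28 ± 0.25. Rgs5, another pericyte gene, fell by 1.65 ± 0.18 but was higher at E10 than at E9, by 2.08. Against the E9 libraries 3 members were higher and 1 lower, and summed levels were 410.4 to 448 CPM at E9, 536 to 560.4 at E9.5 and 382 to 414 at E10. The fall in this list was thus a fall from E9.5 levels above both neighbours.

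Fibrillar matrix genes fell in 12 of 24 members (10 to 18), with a median of -0.32, whereas against the E9 libraries 14 were higher and 4 lower. Dcn, a collagen-binding proteoglycan, went from 57.2, 59.0 and 57.3 to 4.05, 3.98 and 4.41 CPM, a fall of 3.80 ± 0.11, and was at 0.791 CPM on average at E9. Postn, a matrix protein of the periosteum, went from 159, 144 and 151 to 19.7, 18.7 and 19.2 CPM (fall of 2.98 ± 0.12). Eln, elastin, fell by 2.77 ± 0.15, and the chains of collagen VI, Col6a1 and Col6a3, by 1.28 and 1.24. Col1a1, the main collagen of bone, fell by 0.42 ± 0.16 (adjusted p = 0.0465). Col1a1 did not pass without any 1 of the 6 libraries (adjusted p = 0.0607 to 0.156). Tnc, tenascin C, and Tgfbi rose by 1.28 and 0.33. The E9.5 level of Dcn was above that of both E9 and E10, and the same held for Postn and Eln. Tgfbi did not pass without E9.5 library a (adjusted p = 0.0688).

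Hox genes, which mark the hindbrain and trunk and are off in the frontal head, showed the same course at low level. Of 17 tested of 39, 9 fell (2 to 9), and their summed level was 1.15 to 1.64 CPM at E9, 9.13 to 11.4 CPM at E9.5 and 1.31 to 1.69 CPM at E10. The filter used reads of all stages, so members may have been tested because of their E9.5 reads. Their share of falls is therefore not read against the background. Hoxa10, a gene of posterior trunk, had 57 counts at E9.5 and 0 at E10, at least 19.3-fold lower. Hoxd8 and Hoxd9 were at least 12.51-fold and 8.11-fold lower. Hoxb1, of the hindbrain, had 85 counts and 1, a ratio of 86.2 (95% counting interval 15.1 to 3444). Hoxa2, of the second arch, fell by 2.04 ± 0.39. Interferon response genes fell in 6 of 11 members (3 to 7), among them Isg15 at 2.45 ± 0.48 and Irf7 at 1.92 ± 0.33. Genes of adult cell types chosen after their values were seen shared this course, with E9.5 over E10 ratios of 241 (95% counting interval 42.9 to 9571) for H2-Aa of antigen-presenting cells, 40.6 (13.55 to 199) for the oestrogen receptor Esr1 and 23.3 (7.65 to 116) for the fat cell hormone Adipoq. What these E9.5 libraries held that the others did not was not tested.

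**Figure D5:**
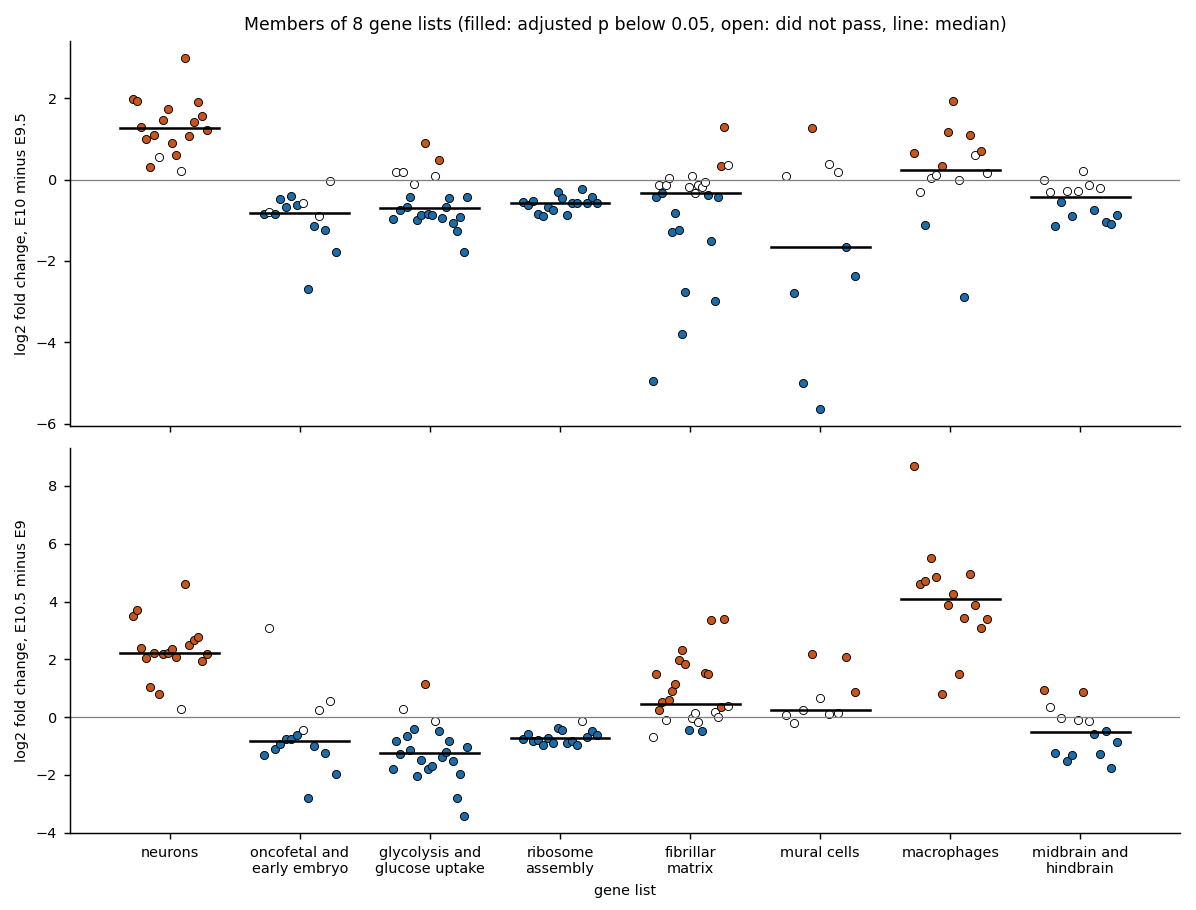
Log2 fold change (vertical axes) of each tested member of 8 gene lists (horizontal axis) for E10 minus E9.5 (upper) and E10.5 minus E9 (lower), filled where the adjusted p was below 0.05 and open where not, with a line at the median. Neuron genes lie above 0 and ribosome assembly genes below 0 in both panels, while fibrillar matrix and mural cell genes lie mostly below 0 only in the upper panel.

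Macrophage genes rose in 6 of 14 members (3 to 7), with 3 when E9.5 library b or E10 library b or c was left out, and 2 fell. Cx3cr1, the fractalkine receptor of microglia and other tissue macrophages, went from 1.41, 2.22 and 1.22 to 6.47, 4.45 and 7.46 CPM (rise of 1.93 ± 0.20). Csf1r, the receptor on which macrophages depend, went from 6.83, 7.62 and 6.19 to 15.4, 16.4 and 14.49 CPM (rise of 1.17 ± 0.14). Mrc1, the mannose receptor, went from 8.95, 10.04 and 8.68 to 19.8, 20.5 and 19.3 CPM (rise of 1.11 ± 0.13). The stages did not overlap for these genes. Lyz2, lysozyme, went the other way, from 40.1, 42.6 and 43.0 to 6.79, 5.21 and 5.01 CPM (fall of 2.89 ± 0.17), as did the complement gene C1qa (fall of 1.10 ± 0.31). C1qa did not pass without E10 library a (adjusted p = 0.0585). The summed level was 8.90 to 11.7 CPM at E9, 97.4 to 103 at E9.5 and 88.8 to 94.5 at E10, and all 14 members were higher at E10 than at E9.

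Vessel genes fell in 6 of 16 members (4 to 13). Kdr, the main VEGF receptor, went from 84.4, 86.6 and 87.2 to 52.7, 52.5 and 53.1 CPM (fall of 0.70 ± 0.13). Flt1, another VEGF receptor, went from 27.1, 26.9 and 25.3 to 15.8, 15.9 and 15.5 CPM (fall of 0.75 ± 0.13). Plvap, of vessel fenestrae, and the transcription factor Sox18 fell by 0.82 and 0.83. Pecam1, an adhesion protein of all endothelium, did not pass (0.07, adjusted p = 0.668). Tie1, a receptor of all endothelium, and Sox17, an arterial factor, did not pass either (-0.12, adjusted p = 0.465 and -0.08, adjusted p = 0.814).

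Of 7 globins 1 rose (1 to 4) and 1 fell (1 to 1), and of 12 other red cell genes 2 rose and 1 fell, near the background share of 26.7%. The embryonic globins Hbb-bh1 and Hbb-y were at 1434, 1409.6 and 1448 and 2157, 2079 and 2262 CPM at E9.5, and their changes were 0.11, adjusted p = 0.666 and 0.36, adjusted p = 0.225. Hbb-y and Hbb-bh1 passed when only the 6 libraries compared were fitted (adjusted p = 8.54e-09 and 0.0182). Hbb-bt, an adult-type beta globin, went from 7.78, 8.07 and 9.73 to 23.6, 22.6 and 19.995 CPM (rise of 1.37 ± 0.30), and its near-identical neighbour Hbb-bs from 32.1, 31.8 and 34.3 to 5.42, 4.56 and 5.23 CPM (fall of 2.69 ± 0.29). Reads of these copies may be split between them, so both values are uncertain. Mean levels at E9 and E10.5 were 1.98 and 20.2 CPM for Hbb-bt and 7.69 and 5.01 CPM for Hbb-bs. From E9 to E10.5, Hbb-bs was thus highest at E9.5, and Hbb-bt was not. Hemgn, of red cell precursors, rose by 0.75 ± 0.14, and Tfrc, the transferrin receptor, fell by 0.54 ± 0.10.

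Surface ectoderm genes went both ways. Of 16 members, 5 rose (3 to 5) and 7 fell (7 to 7). Krt14, a keratin of the basal epidermis, went from 1.24, 1.398 and 0.774 to 2.55, 2.98 and 4.52 CPM (rise of 1.58 ± 0.29), and Tfap2c and Trp63, factors of epidermal commitment, rose by 0.85 and 0.51. Krt8 and Krt18, keratins of simple epithelium, fell by 0.79 and 0.84, and the epithelial adhesion genes Cdh1 and Epcam by 0.72 and 0.62. The change of Krt14 from E9 to E10.5 was -0.26 (adjusted p = 0.719). Trp63 did not pass without E9.5 library c (adjusted p = 0.0528).

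Traces of other tissues moved as well. Ttr, transthyretin of choroid plexus, liver and yolk sac, had 0 counts at E9.5 and 84 at E10, at 1.68, 1.64 and 1.58 CPM, at least 27.6-fold higher. It was at 0.0343 CPM on average at E10.5. Of 12 head muscle genes, 3 rose and 4 fell. Myf5, the first muscle determination factor, rose by 2.21 ± 0.52 from 0.118, 0.508 and 0.442 CPM. Des, of muscle and smooth muscle, went from 31.5, 33.6 and 34.6 to 4.23, 4.45 and 5.23 CPM (fall of 2.84 ± 0.22), and Tbx1, of arch muscle and mesoderm, fell by 1.23 ± 0.22. Of 10 somite and paraxial mesoderm genes, 3 rose (3 to 3) and 2 fell (1 to 2). Uncx, Tbx18 and Pax9, factors of somites and of head mesenchyme, rose by 1.53, 0.78 and 0.79, and the somite factors Meox1 and Meox2 fell by 1.18 and 0.88. Meox2 did not pass without E9.5 library b or c or E10 library b or c (adjusted p = 0.0809 to 0.198). Of 11 genes of sensory and motor neurons, 3 rose (3 to 3), 1 fell (1 to 3) and 7 did not pass. Prph, a filament protein of these neurons, rose by 1.63 ± 0.33, and the neurotrophin receptors Ntrk2 and Ntrk3 by 1.12 and 0.89.

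In retinoic acid metabolism, 3 of 14 members rose (1 to 6) and 3 fell (3 to 5). There, the synthetic enzymes Aldh1a3 and Aldh1a2 fell by 1.42 ± 0.09 and 1.71 ± 0.17, and Aldh1a1 rose by 1.42 ± 0.15. Aldh1a3 went from 99.2, 97.3 and 104 to 37.2, 36.6 and 38.0 CPM, with no overlap. Cyp26c1, which degrades retinoic acid, went from 15.6, 14.2 and 15.7 to 3.42, 4.97 and 4.41 CPM (fall of 1.82 ± 0.15), and Cyp26b1 did not pass (-0.07, adjusted p = 0.785). Genes on the making and on the removing side were thus among the falls.

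In the WNT pathway 6 of 28 members rose and 9 fell (7 to 13). Among ligands Wnt7b rose by 0.81 ± 0.08 and Wnt1 and Wnt3a fell by 0.87 and 0.87. Tcf7, a nuclear effector, fell by 0.89 ± 0.12, and Axin2, a common target, did not pass (-0.08, adjusted p = 0.682). In the FGF pathway 8 of 19 fell (5 to 11). The ligand Fgf18 fell by 0.93 ± 0.25, the feedback inhibitors Spred1 and Spry2 by 0.63 and 0.61, and the target Etv5 by 0.54 ± 0.09, while the receptor Fgfr3 rose by 0.76 ± 0.12 and the target Etv4 by 0.74 ± 0.11. In the BMP and TGF-beta list 5 of 24 rose (3 to 5) and 5 fell (2 to 10). The inhibitor of differentiation Id4 went from 21.5, 22.2 and 19.9 to 79.4, 77.0 and 85.1 CPM (rise of 1.93 ± 0.12), and Id1, Id2 and Id3 did not pass (-0.29, adjusted p = 0.238, 0.01, adjusted p = 0.976 and -0.20, adjusted p = 0.374). Tgfb2 rose by 0.71 ± 0.15 and Tgfb1 fell by 0.84 ± 0.15. Of 14 hedgehog genes 2 fell (1 to 6), or 14.3%, near the background share of 12.3%. These were Gli3 at 0.52 ± 0.16 and the co-receptor Gas1 at 0.46 ± 0.11. Against the E9 libraries 3 hedgehog genes were higher and 7 lower, and from E9 to E10.5 the counts were 5 and 3. Gli3 did not pass without E9.5 library b or E10 library c (adjusted p = 0.0512 to 0.0572). Igf1, a growth factor, rose by 1.03 ± 0.15 from 21.4, 22.3 and 22.9 to 46.4, 40.7 and 49.5 CPM.

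Imprinted genes, expressed from 1 parental copy, had 8 of 24 higher and 4 lower (3 to 9). Nnat, neuronatin of developing brain, went from 494, 488 and 529.5 to 887, 908 and 830.2 CPM (rise of 0.80 ± 0.13). Mest, of embryonic mesoderm, went from 2018, 2039.7 and 1969.9 to 1154, 1220.0 and 1228 CPM (fall of 0.74 ± 0.16). H19 and Igf2, neighbours with opposite imprints, did not pass (-0.13, adjusted p = 0.3 and -0.41, adjusted p = 0.325). Both passed as lower when only the 6 libraries compared were fitted (adjusted p = 0.00202 and 1.41e-06).

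Counts of several lists rested on single libraries. The 6 mitosis falls became 2 or 3 whichever library was left out, and the 5 arch falls became 2 or 3 unless the library left out was E10 library a. The forebrain falls were 2 without E10 library a and the osteoblast falls 3 without E10 library c. The ectoderm rises were 3 without E9.5 library c, the vesicle gene rises 2 without E9.5 library b or E10 library a, and the macrophage falls 1 without E10 library a. The frontonasal rises were 3 without E9.5 library c or E10 library a, and its falls 1 without E9.5 library c or E10 library c. The dorsal tube list lost its rise without E9.5 library a or c or E10 library b or c, and its falls were 1 without E10 library c. The somite falls were 1 without E9.5 library b or c or E10 library b or c, and the fall in the sensory and motor neuron list became 2 without E10 library b. The BMP and TGF-beta rises were 3 without E9.5 library a or c or E10 library a or b, its falls 3 without E9.5 library b or E10 library a or b, and the retinoic acid rises were 1 whichever library was left out. The hedgehog falls were 1 without E9.5 library b or E10 library c. Of 356 genes followed through the alternatives, 45 did not pass when 1 of the 6 libraries was left out, with adjusted p between 0.0504 and 0.377. With library totals alone, Foxd3, Gli3, Six3, Rrn3, Utp20, Hapln1, Meox2 and Col1a1 did not pass either. When only the 6 libraries compared were fitted, 21 of the 344 followed genes tested there gained a call. Those reported above as not passing, without that remark, were Fgf8, Id1, Id3, L1cam, Neurod1, Neurog1, Pdgfrb, Prrx1 and Vegfa (adjusted p = 9.51e-06 to 0.047). Sign changes of genes such as Idh2, Alx4 and Abcc9, which passed against neither stage, are left out of the next count. With the E9 libraries in place of E9.5, 37 of the 356 had the opposite direction. Of genes described above without that remark these were Actg2, Myh11, Mgp, Ly6c1, Cnn1, Tagln, Dcn, Postn, Eln, Col6a1, Col6a3, Col1a1, Hoxb1, Isg15, Irf7, H2-Aa, Esr1, Lyz2, C1qa, Meox2, Pfkp, Sox9, Xbp1, Herpud1, Vegfa, Acly and Cyp26b1.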

How the data were processed

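RNA-seq counts per gene, as deposited by the authors, were made from polyadenylated RNA of mouse frontal tissue with cutadapt 1.9.1, HISAT2 2.0.1 and HTSeq 0.6.1 on GRCm38, per the submitters' processing notes. The sources used here give neither the annotation release nor the strand setting, so reads of overlapping, antisense and near-identical genes cannot be told apart. Of 55401 gene identifiers, 55141 matched a GENCODE M21 symbol. Total counts ranged from 14516518 to 19964404 over the 33 libraries, and from 15969853 to 19196475 over the 6 compared.

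The counts of all 33 libraries were fitted with edgeR 4.0.16 (R 4.3.3), with 1 mean per stage, TMM scaling and filterByExpr, which left 20073 genes. The contrast of E10 with E9.5 was tested by edgeR's quasi-likelihood test with Benjamini-Hochberg adjustment over all of them, at a threshold of 0.05. A standard error is the size of the log2 fold change divided by the square root of its F statistic. CPM values are counts scaled by the TMM-adjusted library size, computed by edgeR. Genes at 0 in a stage are given as a bound with that stage's total set to a floor of 3 counts, and those with 1 to 3 counts as a ratio with its 95% interval, both covering counting error only. The scripts were tested on simulated counts. Figures were drawn with matplotlib 3.10.9.

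Named genes were the 12 largest rises and 12 largest falls among genes that passed, did not overlap between stages and reached a mean of 5 CPM, leaving out predicted genes and pseudogenes, the 4 passing members with the largest change in each gene list, and fixed citrate and bone genes. Further genes were added once their values had been seen. Some genes that the rule selects are not reported here. The gene lists and members were chosen with earlier results of these data known. Lists were described by counts and medians only. Letters a, b and c are those of the table's columns, and nothing ties them to the numbering of replicates in the labels.

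Other fits used DESeq2 1.42.0, relative-log-expression size factors, library totals alone, no filter, a stricter filter, the column letter as a block, only the libraries compared, no E11.5, E12 or E13.5 libraries, removal of a trend with transcript length, and 1 library left out at a time. Mature microRNA and promoter sequences are from RefSeq (GRCm38.p6).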

Additional observations from a re-analysis of the deposited data

How the results depend on the processing

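Genes higher at E10 numbered 2905 and stayed within 1.5 times of that under every other fit of the same 2 stages. Genes lower at E10 numbered 2459 and moved further: 1577 with library totals alone, 4272 with only the 6 libraries compared, 4487 with stages E11.5, E12 and E13.5 left out and 3741 with the length trend removed. Of genes lower at E10.5 than at E9 there were 3128, and the settings in that order gave 1981, 4949, 4815 and 4914. With the E9 libraries in place of E9.5, 5076 genes were higher and 3868 lower. The cause of these shifts was not tested. Leaving out 1 library gave 2287 to 2415 higher and 1894 to 2007 lower at E10, and 3400 to 3631 higher and 2670 to 2747 lower at E10.5 against E9.

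Columns of the same letter at E9.5 and E10 had deviations from their stage means that correlated at 0.004, -0.021 and -0.013, so the letters share only a name. With the letter as a replicate block, 2831 genes were higher and 2361 lower. Of 356 genes followed, 352 kept their call under the block and 4 did not pass.

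Of the 356 genes, 37 had the opposite direction when the E9 libraries replaced those of E9.5, and no other setting turned the direction of a gene that had passed. Idh2, Alx4 and Abcc9 changed sign without passing against either stage and are not among the 37. Not all of the 37 differed from E9, since Cnn1, Myh11 and Xbp1 did not pass there (adjusted p = 0.814, 0.319 and 0.753). Differences of E10 from E9 on the log2 scale were, for genes of connective tissue, vessel wall and muscle, 1.45 for Actg2, 1.35 for Mgp, 0.58 for Myh11, 0.14 for Cnn1, 0.87 for Tagln, 2.41 for Dcn, 0.82 for Postn, 1.55 for Eln, 0.31 for Aspn, 0.43 for Col6a1, 1.71 for Col6a3, 0.95 for Col1a1 and 0.57 for Meox2. For immune and interferon genes they were 3.84 for Lyz2, 4.65 for C1qa, 3.86 for Ifit1, 0.15 for Ifit3, 3.97 for Isg15, 0.68 for Oas1a, 0.57 for Irf7, 1.89 for H2-Aa and 0.33 for Ly6c1. For the others they were 1.89 for Hoxb1, 1.16 for Hist1h1c, 0.48 for Fos, 1.66 for Hspb1, 3.20 for Esr1, 0.17 for Wdr82, 1.06 for Neat1, 0.62 for Cyp26b1, -0.31 for Acly, -0.39 for Lhx2, -0.033 for Xbp1, -0.19 for Herpud1, -0.46 for Pfkp, -0.39 for Vegfa and -0.28 for Sox9.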
